A study of Mus musculus with 2 samples.

Results

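Immunoglobulin and T cell receptor genes are stored in the germline as arrays of V, D and J segments with a few C genes, and CTCF occupancy at these arrays was examined here in cells that do not rearrange them. The members were every gene of the GENCODE M1 annotation whose type marks it as an immunoglobulin or T cell receptor segment on chromosomes 1 to 19 of the mouse (mm9), and each was taken with 5 kb of flanking sequence on either side. This gave 481 segments of 34653 annotated genes. The heavy chain locus (Igh, chromosome 12) held 142, the kappa locus (Igk, chromosome 6) 105, the lambda locus (Igl, chromosome 16) 3, the alpha/delta locus (Tcra and Tcrd, chromosome 14) 172, the beta locus (Tcrb, chromosome 6) 41 and the gamma locus (Tcrg, chromosome 13) 14. A further 4 lay outside the loci, among them Ptcra, which encodes the invariant chain of the pre-T cell receptor. By kind there were 355 V, 25 D, 88 J and 13 C segments.

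The chromatin came from R1/E mouse embryonic stem cells (ESCs) carrying a bacterial artificial chromosome that expresses CTCF with a GFP-containing tag. It was fixed in 1% formaldehyde, and CTCF was precipitated through the tag with a goat antibody against eGFP. The comparison library was made from the same cells with goat IgG of no target, which the labels also call input DNA. Both groups therefore share the tagged line and the culture conditions, the tag is carried by an added gene copy, and there was 1 library per antibody, so values have no replicate check and every interval or p-value covers counting error only. The CTCF library held 8391191 aligned tags of 35 bases and the IgG library 7988889. The 33226 deposited peaks on chromosomes 1 to 19 had a median summit height of 13 tags, where the height is the pileup of tags at the highest point of the peak.

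During lymphocyte development the RAG recombinase joins D to J and V to DJ segments, or V directly to J. It cuts at recombination signals that begin right after the 3′ end of each V segment with a conserved heptamer. CTCF is a zinc finger protein that binds a long, asymmetric DNA motif, so each site has a direction, and with cohesin it holds the bases of chromatin loops. In lymphocytes CTCF sites in these loci are known to shape the loops that bring distant V segments to the recombination centre, and the intergenic control region IGCR1 upstream of the Ighd array, the Cer and Sis elements between Igkv and Igkj, and the CTCF sites beyond the heavy chain 3′ regulatory region are the best known of them. ESCs are not lymphocytes and carry these loci unrearranged.

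The sequences that carry the main observations are shown first, read by coordinates from the mm9 (NCBI m37) assembly and written 5′ to 3′ on the strand of the segment. Heavy chain V segments of several families held a CTCF motif just beyond their recombination signal. The stretches below start at the base after the V segment, and the capitals mark the heptamer, found as CACAGTG or CACAATG in the first 20 bases, and then the CTCF motif. They lie on the minus strand at chr12:114816638-114816714 for Ighv5-2, chr12:114849316-114849394 for Ighv2-3, chr12:115117228-115117306 for Ighv2-9, chr12:115186414-115186492 for Ighv4-1, chr12:115286373-115286451 for Ighv11-2 and chr12:115150165-115150235 for Ighv7-2.

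Ighv5-2: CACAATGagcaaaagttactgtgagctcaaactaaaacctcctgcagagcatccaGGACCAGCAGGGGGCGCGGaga
Ighv2-3: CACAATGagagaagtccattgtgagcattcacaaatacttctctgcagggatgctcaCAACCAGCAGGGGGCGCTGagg
Ighv2-9: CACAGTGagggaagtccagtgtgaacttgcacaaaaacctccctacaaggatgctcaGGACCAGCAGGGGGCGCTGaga
Ighv4-1: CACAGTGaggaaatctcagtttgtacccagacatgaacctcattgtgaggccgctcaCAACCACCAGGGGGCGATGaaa
Ighv11-2: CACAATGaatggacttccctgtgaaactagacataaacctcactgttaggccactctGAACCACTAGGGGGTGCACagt
Ighv7-2: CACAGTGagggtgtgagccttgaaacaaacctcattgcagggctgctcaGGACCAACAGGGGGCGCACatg

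Many alpha/delta V segments instead held the motif before their start. The motifs below are shown in capitals with 5 flanking bases on each side, and the capitals lie on the plus strand of chromosome 14, at chr14:53200183-53200201 for Trav3-1, chr14:53258055-53258073 for Trav6-1, chr14:53741567-53741585 for Trav10n, chr14:54157754-54157772 for Trav12-1 and chr14:54426074-54426092 for Trav17.

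Trav3-1: ggagcTGTCCACAAGGGGGCAGAAcacct
Trav6-1: gtctcTGTCCACTAGGGGGTGGAGttttc
Trav10n: agaagTGGCCACAAGATGGCAGTAgcgca
Trav12-1: aagggAAACCAGCAGAGGGCGCTGcccct
Trav17: accttTGACCACAAGGGGGCACTGttgca

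The other sites are those at or near the edges of the arrays. The pair next to Ighd1-1 lies at chr12:114723477-114723495 on the minus strand and chr12:114726096-114726114 on the plus strand. The 3 highest motif-bearing summits beyond the heavy C genes lie at chr12:114455670-114455688, chr12:114458261-114458279 and chr12:114460424-114460442, all on the plus strand. The site between Igkv and Igkj lies at chr6:70659460-70659478 on the minus strand, that before Traj61 at chr14:54772705-54772723 on the minus strand, that past Trac at chr14:54847757-54847775 on the plus strand and that past Trbv31 at chr6:41506569-41506587 on the minus strand. Each is written on the strand of its motif, again with the motif in capitals, and the coordinates are those of the capitals.

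Ighd1-1, nearer: cttccTCTCCACAAGAGGGCAGAAttcgg
Ighd1-1, farther: gctcaTAGCCACAAGGGGGAAGCAgagac
Past Ighe, 53.7 kb: gcaatTGGACACTAGGGGGCATTTaagct
Past Ighe, 51.2 kb: gcatcTAGCCACCAGGGGGCACATgagct
Past Ighe, 48.9 kb: accaaTGGCCACATGGTGGCAGCAgagat
Igkv to Igkj gap: atgctGTATCAGCAGATGGCAGTGttgta
Before Traj61: tagttAGAGCAGCAGGGGGCGCTGtgagg
Past Trac: taaggTAGCCACACGGGGGCAGCAgtact
Past Trbv31: cttttCTTCCACAAGAGGGCACAAgaagt

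A CTCF peak overlapped 74 of the 481 segment regions, which is 15.4% (95% Wilson interval 12.4 to 18.9%). The background was 42.3% for all annotated genes with the same flanks and 12.5% for 10 kb windows. The windows are the nearer comparison in size, since the median segment region was 10.4 kb long and the median gene region 15.9 kb. The loci differed among themselves. In the beta locus 12 of 41 regions had a peak (29.3%), in the heavy locus 27 of 142 (19%) and in the alpha/delta locus 30 of 172 (17.4%), against 4 of 105 in the kappa locus (3.81%) and none of the 14 gamma and 3 lambda regions. The intervals ran from 1.49 to 9.39% in the kappa and from 13.4 to 26.3% in the heavy locus. That of the gamma locus reached 21.5% and that of the lambda locus 56.1%. They take the regions as independent although neighbours can share a peak, so they give no test between loci. Among kinds of segment, 66 of 355 V regions had a peak (18.6%), against 2 of 25 D regions, 5 of 88 J regions and 1 of 13 C regions.

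**Figure D1:**
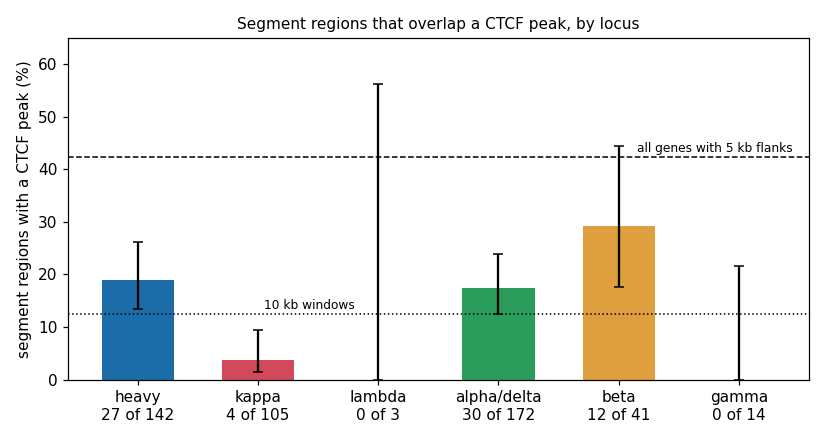
Percent of segment regions (segment with 5 kb on each side) that overlap a CTCF peak, by locus, with 95% Wilson intervals as bars. The dashed line is the 42.3% of all genes and the dotted line the 12.5% of 10 kb windows, and the kappa bar at 3.81% lies below both.

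Neighbouring regions overlap, so the peaks were also counted once each. The merged regions covered 3691 kb and touched 65 distinct peaks, or 17.6 per Mb (13.6 to 22.4, exact Poisson interval), beside 13.9 per Mb over chromosomes 1 to 19. The density was 42.5 per Mb in the beta regions (9 peaks), 24.9 in the alpha/delta regions (26 peaks), 20.2 in the heavy regions (25 peaks) and 3.94 in the kappa regions (4 peaks). Over the whole spans, gaps included, it was 16.5 per Mb for the beta locus, 16.7 for alpha/delta, 12.1 for heavy and 6.31 for kappa. The peaks were lower than elsewhere, with a median height of 11 tags beside 13 for all peaks and a median score of 90.9 beside 118, where the score is −10 log10 of the peak caller's p-value against IgG.

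How much of the sequence is unique, and so lets a tag be placed, also differed between the loci. The part of this in the peak densities was not tested. Of all 35-base words in the merged segment regions 61.6% occurred once in the assembly, beside 87.1% in 400 evenly spaced 10 kb windows. The share was 43.5% in the alpha/delta regions, 65.7% in the heavy regions, 66.0% in the kappa regions and 91.0% in the beta regions. In the gamma and lambda regions, which had no peak, it was 77.1% and 80.3%. The alpha/delta regions held 1.43 IgG tags per kb, against 3.23 over chromosomes 1 to 19, and 34 of the 108 alpha/delta V regions held no IgG tag at all. Counted per Mb of unique sequence, the alpha/delta regions held 57.3 peaks, the beta regions 46.7, the heavy regions 30.7 and the kappa regions 5.97. All segment regions together held 28.6, and no such value was computed for whole chromosomes.

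The tags of both libraries were then compared in each region with an exact binomial test, two-sided, adjusted over all 34653 genes by the Benjamini-Hochberg method. The test compares 2 libraries, not conditions. CTCF tags were higher in 71 of the 481 segments at an adjusted p of at most 0.05, while the background over all genes was 33.1%. IgG tags were higher in 21 of the 481, with a background of 8.47%. The median was 27 IgG tags per segment region and 50 per gene region, so the test had fewer tags to count in the segments. Fewer than 10 IgG tags lay in 87 segment regions, of which 58 were among the 172 of the alpha/delta locus. The part of this in the numbers called was not tested. Of the 71 segments 49 overlapped a deposited peak. The alpha/delta locus had 33 segments with higher CTCF and none with higher IgG, the heavy locus 18 and 6, the beta locus 15 and 1, the kappa locus 4 and 12, and the gamma locus 0 and 2. Over the merged regions the depth-scaled CTCF to IgG ratio was 1.66 in alpha/delta (95% interval 1.56 to 1.77), 1.38 in beta (1.26 to 1.52) and 1.17 in heavy (1.12 to 1.23). It was 0.838 in kappa (0.790 to 0.888) and 0.883 in gamma (0.757 to 1.03), and 1.00 over chromosomes 1 to 19. The totals used for scaling include tags inside peaks. Outside all deposited peaks the libraries held 7429895 CTCF and 7884089 IgG tags, so sequence without peaks lies below 1 on average on this scale. The binomial test uses the same totals. The part of this in the low ratios and in the calls with higher IgG was not tested by locus.

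**Figure D2:**
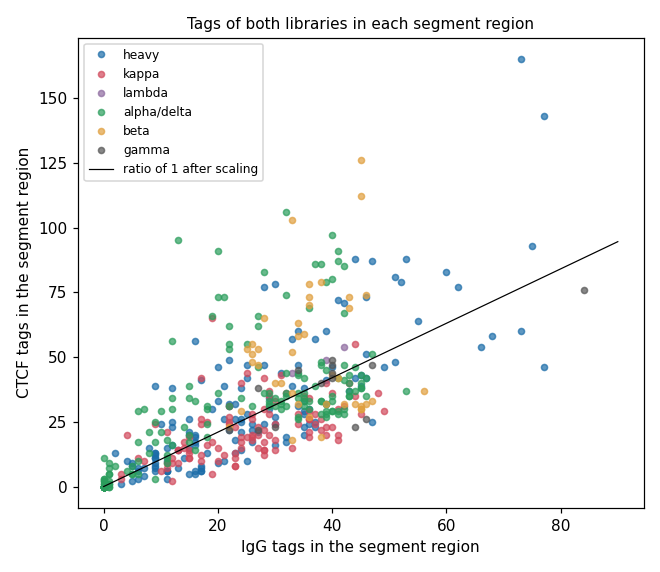
CTCF tags (y axis) against IgG tags (x axis) in each segment region, 1 point per segment, coloured by locus, with the line where both libraries are equal after scaling to depth. Ighv2-6, with 165 CTCF and 73 IgG tags, and many alpha/delta and beta segments lie above the line, and most kappa segments lie below it.

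A CTCF motif (p of at most 1e-05 within 150 bp) was found at 51 of the 63 summits inside the regions, which is 81.0% (69.6 to 88.8%). It was found at 72.6% of all summits and at 5.58% of positions 2 kb away from them. Across all summits the motif lay on the plus strand 12036 times and on the minus strand 12079 times. The strands at the summits inside each locus are given with that locus.

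The heavy locus is annotated on the minus strand, apart from Ighv5-8 and Ighv1-13. Its whole span held 33 peaks, of which 29 had a motif on the minus strand, 1 on the plus strand and 3 none. All 23 motifs in the segment regions read in the direction of transcription, from the distal V segments towards the C genes. Beyond the C genes the direction was the opposite. In the 100 kb past Ighe, the outermost C gene in this annotation, 6 peaks stood within 10 kb of each other, 46.9 to 55.4 kb from it, and the 5 with a motif had it on the plus strand. The highest, at chr12:114460555, had a height of 47 tags with 114 CTCF tags against 7 IgG tags, and the next tallest of the cluster had 77 against 2 and 72 against 3. The summit of 47 tags was the tallest of any receptor locus and its flanks. The Igh C genes themselves, which encode the antibody classes, had no peak within 5 kb, and their tags ran from 23 to 31 in the CTCF library and from 34 to 47 in the IgG library. Of the 5, Ighg had fewer CTCF than IgG tags (25 against 47, adjusted p = 0.0179, exact binomial test).

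A pair of peaks stood 3.21 and 5.58 kb upstream of Ighd1-1, in the interval where IGCR1 is known to lie. The nearer one held 18 CTCF and 3 IgG tags with a height of 9, and the farther one 20 and 2 with a height of 13. Their motifs faced away from each other, the nearer reading towards the C genes and the farther, on the plus strand, towards the V segments. The farther motif was the only one in the heavy span that did not read towards the C genes. No other peak touched a region of the 21 Ighd segments, in which the CTCF tags had a median of 8 and the IgG tags of 17, with a median of 56.2% unique words. The 4 Ighj regions held no peak, with a median of 24.5 CTCF and 26 IgG tags.

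**Figure D3:**
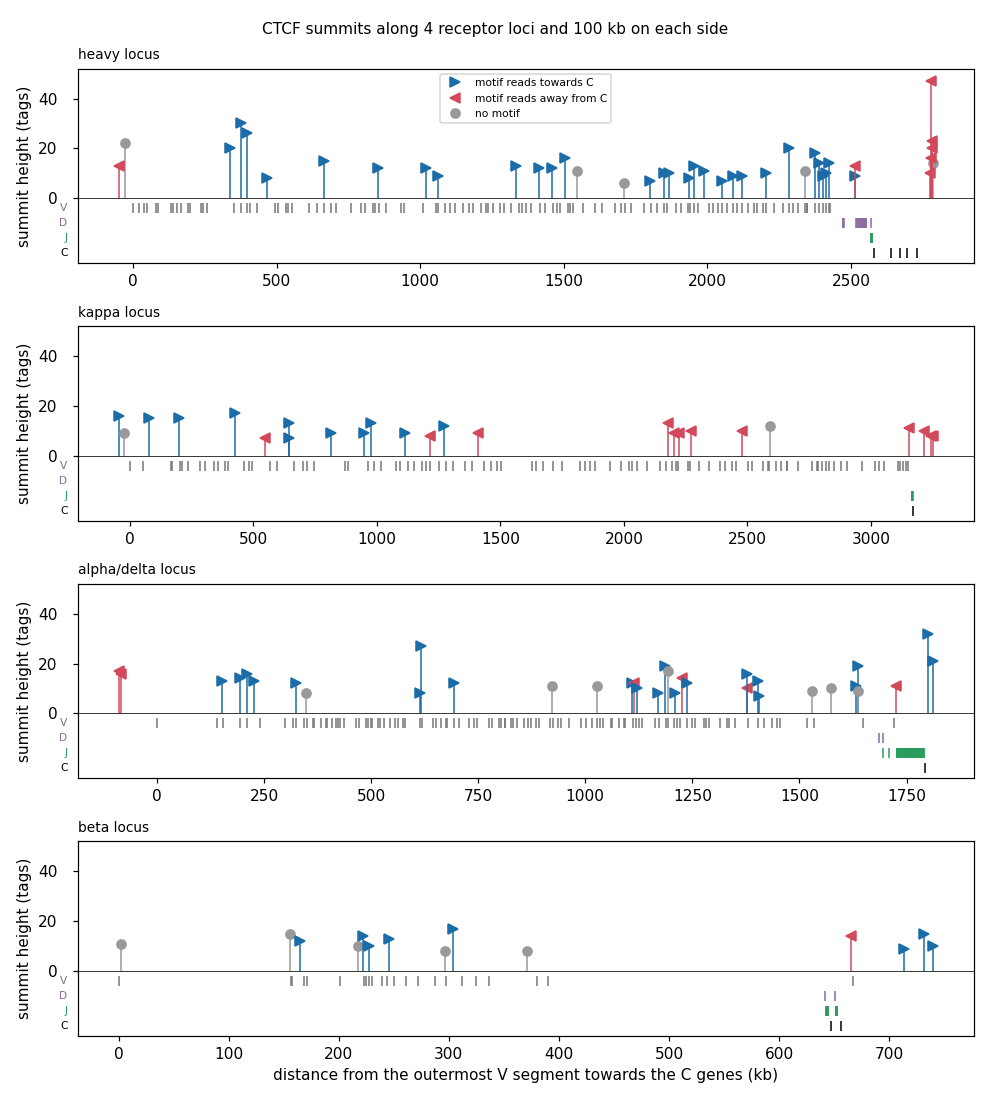
Height in tags (y axis) of each CTCF summit along the heavy, kappa, alpha/delta and beta loci and 100 kb on each side, against the distance in kb from the outermost V segment towards the C genes. Arrowheads give the direction of the motif, grey dots are summits with none, and the ticks below mark V, D, J and C segments. In the heavy locus 29 of 30 motifs point towards the C genes and the tallest summit, 47 tags, lies beyond them and points back.

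Within the heavy V array some peaks sat on the V segments themselves and others lay between them. A summit lay within 500 bp of the 3′ end of 13 of the 112 V segments, 11.6%, where the background over all genes was 2.76%. The closest were at Ighv2-2 (10 bp past the end), Ighv4-1 (11 bp), Ighv11-2 (16 bp), Ighv5-6 (16 bp before the end) and Ighv2-3 (31 bp past it), followed by Ighv2-9, Ighv2-6-8, Ighv5-2, Ighv2-6 and Ighv7-3, all within 139 bp. The most tags were at Ighv2-6, where the region held 165 CTCF and 73 IgG tags (ratio 2.15, 1.62 to 2.87, adjusted p = 1.45e-07, exact binomial test) and the peak itself 115 and 28. The next in this group were Ighv5-6 with 88 and 44 tags and Ighv2-3 with 87 and 47. Of the 13 regions 5 did not pass the test, with 30 against 19 tags at Ighv4-1, 42 against 25 at Ighv2-6-8, 81 against 51 at Ighv5-9, 47 against 34 at Ighv2-9 and 42 against 46 at Ighv7-3. Other peaks of this side of the array lay off the annotated segments, such as those 18.2 kb before Ighv14-2, 3.25 kb before Ighv14-3 and 5.62 kb past Ighv9-3. The motif of the peak before Ighv14-2, with its 5 flanking bases on each side, was identical to that of the peak at Ighv4-1. Whether a V segment missing from the annotation lies there was not tested.

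The large Ighv1 family makes up much of the distal end of the array. Of 56 Ighv1 regions 7 had a peak, which is 12.5% and the same as the share of 10 kb windows. The regions had a median of 56.4% unique words, and 19 of them held fewer than 10 IgG tags. No Ighv1 segment had a summit within 500 bp of its 3′ end or of its start, where the backgrounds over all genes were 2.76% and 4.15%. The tallest summits in the Ighv1 regions were 931 bp before the start of Ighv1-67 (height 26, 81 CTCF and 23 IgG tags) and 827 bp before the start of Ighv1-69 (height 30, 46 and 15 tags). Both regions passed the exact binomial test, with 143 against 77 tags (adjusted p = 0.000215) and 88 against 53 (adjusted p = 0.0239). These peaks had the motif on the minus strand as well.

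The motif was then sought in the sequence of the 300 bp past the 3′ end of each V segment. The scan itself did not use the peaks, but the window was chosen after values were seen. The motif matrix came from CTCF sequences that the study listed for sites of the cohesin subunit RAD21. The search is therefore not independent of the binding data. It was present past 30 of the 112 heavy V segments. All 30 had it on the strand of the segment, with the centre of the motif 59 to 82 bp past the end and a median of 67 bp, which places it beyond the recombination signal. Over all annotated genes 4.33% had a motif in such a window, and 54.6% of those had it on the strand of the gene. The 30 motifs are not independent, since some are repeated within families. Ighv2-3, Ighv2-6 and Ighv2-6-8 had the same 19 motif bases, and so did Ighv5-6, Ighv5-12 and Ighv5-9-1. The motif followed the V family. It was found past 8 of 10 Ighv2, 9 of 10 Ighv5, 4 of 4 Ighv7, 2 of 2 Ighv10, 2 of 2 Ighv11 and 1 of 2 Ighv6 segments, and past the lone members of Ighv4, Ighv12, Ighv13 and Ighv16. It was absent from this window in 56 of 56 Ighv1, 8 of 8 Ighv8, 5 of 5 Ighv3, 4 of 4 Ighv9 and 4 of 4 Ighv14 segments and from the lone Ighv15. None of 99 kappa and none of 108 alpha/delta V segments had it, and Trbv19 and Trgv4 were the only bearers in the beta and gamma loci.

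**Figure D4:**
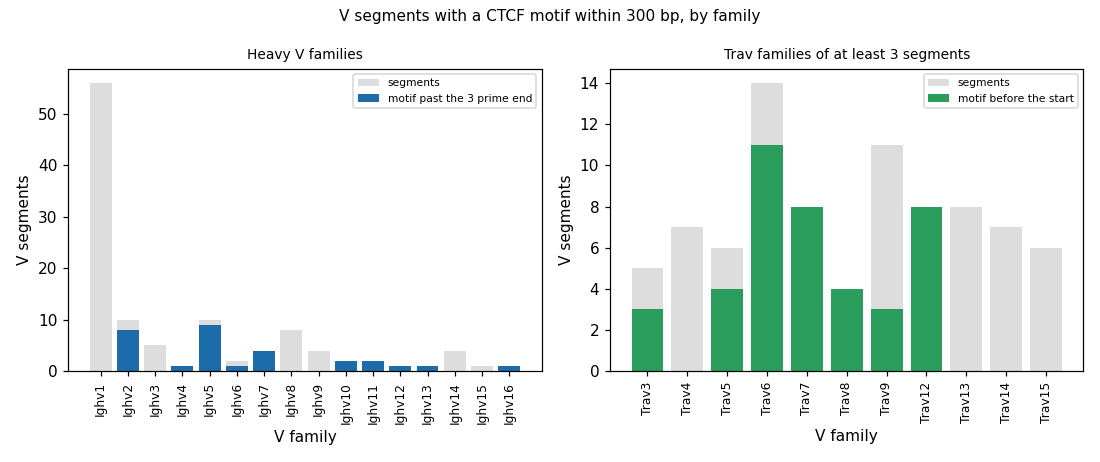
Number of V segments (y axis) in each family (grey) and the number with a CTCF motif (coloured), within 300 bp past the 3′ end for heavy V families (left) and within 300 bp before the start for Trav families of at least 3 segments (right). The motif is present past 9 of 10 Ighv5 but 0 of 56 Ighv1 segments, and before 8 of 8 Trav12 but 0 of 8 Trav13 segments.

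Tags followed the motif, also where no peak had been deposited. Summed over windows of 250 bp to either side of the point 67 bp past the end, the 30 V segments with a motif held 310 tags of the CTCF library and 55 of IgG, or 5.37 after scaling to depth (95% interval 4.02 to 7.29). The 82 V segments without it held 140 and 135, a ratio of 0.987 (0.774 to 1.26). The same windows past all annotated genes gave 1.33. Of the 30 segments with a motif 13 had a summit within 500 bp of the 3′ end and 17 had none. Those 17 still held 102 CTCF and 27 IgG tags, a ratio of 3.60 (2.33 to 5.72). The 13, which the peak calls on the same libraries select for high CTCF, held 208 and 28. The median motif score (log2 odds against the base frequencies) was 21.8 with a summit and 19.2 without, and the median share of unique words in the regions was 70.7% and 83.6%. The part of either in the peak calls was not tested. Ighv5-16 and Ighv16-1 carried the motif with no tag of either library in the window, in regions with 98.5% and 90.6% unique words. The whole region of Ighv5-16 held 7 CTCF and 7 IgG tags, and that of Ighv16-1 held 20 and 16. A window empty in both libraries does not show whether its motif was bound. Whether the cells carry the sequence of the assembly there was not tested.

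**Figure D5:**
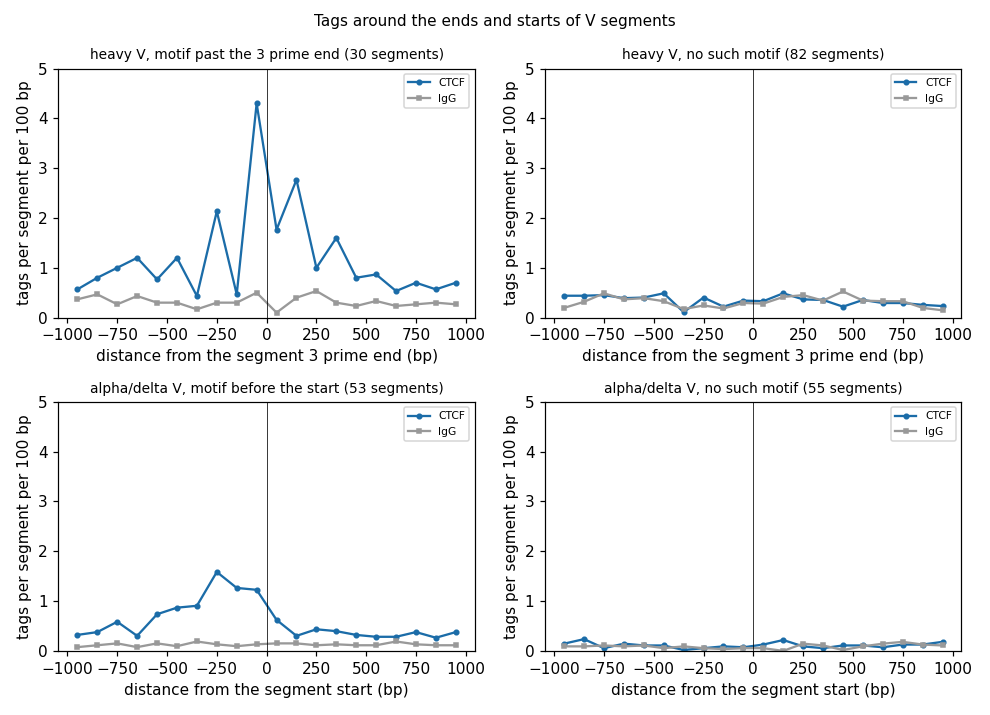
Tags per segment per 100 bp (y axis) of the CTCF (blue) and IgG (grey) libraries against the distance in bp from the 3′ end of heavy V segments (top) or from the start of alpha/delta V segments (bottom), with a motif there (left; 30 and 53 segments) and without (right; 82 and 55 segments). CTCF tags rise above IgG around the 3′ end and upstream of the start in the left panels and stay close to IgG in the right panels.

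The alpha/delta locus is annotated on the plus strand, apart from Trdv5. Its span held 31 peaks up to and including the Trac region, of which 20 had a motif on the plus strand, 4 on the minus strand and 7 none. A summit was found within 500 bp of the start of 12 of the 108 V segments, 11.1%, where the background over all genes was 4.15%, and within 500 bp of the 3′ end of 1.85% of them. The region of Trav12-1 held 106 CTCF and 32 IgG tags (ratio 3.15, 2.11 to 4.84, adjusted p = 1.07e-08, exact binomial test), with a summit 199 bp before the start. The region of Trav17, where 98.8% of words were unique, held 97 and 40 tags (ratio 2.31, adjusted p = 2.47e-05, exact binomial test), with a summit 100 bp before the start. Tcra-V8, shown under an older symbol, held 95 and 13, Trav13-1 91 and 41, and Trav8d-2 91 and 20. The tallest summit of the V array, with a height of 27 and 42 against 3 tags, stood 1.80 kb before Trav16d-dv11.

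A motif lay in the 300 bp before the start of 53 of the 108 alpha/delta V segments, 49.1% (39.8 to 58.4%), and all 53 were on the strand of the segment, with a median distance of 172 bp. Over all annotated genes the share was 6.27%, of which 56.8% were on the strand of the gene. None of 112 heavy, none of 23 beta, 1 of 99 kappa and 2 of 7 gamma V segments had it, and 1 of the gamma motifs was on the strand of the segment. The start in this annotation was an ATG in 52 of the 108 segments, so the distances mix different kinds of annotated start. It was an ATG in 6 of 8 Trav12, 1 of 8 Trav7 and 1 of 8 Trav13 segments. Some models without the motif, such as Trav3d-3 and Trav5d-3, are shorter than bearers of the same family, such as Trav3-1 and Trav5-1. The window may then cover another part of the segment, and the part of this in the counts by family was not tested. The share with a motif again differed by family. It was found before 8 of 8 Trav12, 8 of 8 Trav7, 4 of 4 Trav8, 11 of 14 Trav6, 4 of 6 Trav5, 3 of 5 Trav3 and 3 of 11 Trav9 segments, and before none of the 8 Trav13, 7 Trav14, 7 Trav4 and 6 Trav15 segments.

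Many of these segments are copies of each other, since part of the array is duplicated in the reference genome, and the d and n in their names mark the copies. The 53 motifs had only 29 distinct sequences. Windows of 250 bp to either side of the point 172 bp before the start held 304 CTCF and 33 IgG tags over the 53 segments (ratio 8.77, 6.11 to 13.0), and 19 and 15 over the 55 without the motif (ratio 1.21, 0.581 to 2.55). All genes gave 1.73 at the same place. The 41 segments with a motif but no summit within 500 bp held 77 and 13 tags (ratio 5.64, 3.11 to 11.1), and in 22 of them no tag of either library lay within 250 bp of the motif. The part of uniqueness in this was not tested. Of the 22 segments with a motif in regions of at least 50% unique words 10 had a summit, and of the 12 in regions under 5% none had. Trav12d-1, Trav12d-3, Trav12n-1 and Trav12n-3 had the same 19 motif bases as Trav12-1, and their regions held 0.448 to 0.772% unique words and no tag of either library. Among the 22 segments in regions of at least 50% unique words, 4 also had no tag of either library within 250 bp of the motif. They were Trav7n-4 (62.4% unique words), Trav5-4 (58.7%), Tcra-V8 (51.8%) and Trav9-4 (50.9%). Tcra-V8 has the same 19 motif bases as Trav12-1.

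The J and C end of the alpha/delta locus had a site on each side. The one in front, 1.85 kb upstream of Traj61, the first segment of the J alpha array, had a height of 11 with 35 CTCF and 4 IgG tags, and its motif was on the minus strand, reading back towards the V segments. The germline promoter known as TEA lies in front of this array. The regions of Traj61, Traj60, Traj59, Traj58 and Traj57 share this peak. The first 4 passed the exact binomial test, with 86, 86, 87 and 79 CTCF tags against 37, 38, 41 and 39 IgG tags, and Traj57, with 46 against 44, did not. Those 4 were the only J regions of the locus to pass, and the 61 J alpha and delta regions had a median of 35 CTCF and 38 IgG tags. The one behind, 5.09 kb past the end of Trac, which encodes the constant part of the alpha chain, was the tallest of the locus, with a height of 32 and 62 against 10 tags, and the region of Trac held 69 and 36 (ratio 1.82, 1.20 to 2.81, adjusted p = 0.00995, exact binomial test). A further site 16.1 kb past Trac had a height of 21, and both had plus-strand motifs. In the delta part, 3 peaks stood 9.44 to 15.1 kb before Trdv4, and the 2 with motifs had them on the plus strand. The D segments Trdd1 and Trdd2 had no peak, with 43 against 45 and 44 against 34 tags. At the far end 2 flanking peaks 84.0 and 89 kb before Trav1 had minus-strand motifs.

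The kappa locus was the sparsest of the large loci at its segments. Of its 20 peaks 16 lay between segment regions and 4 inside them. The tallest of the locus and its flanks had heights of 17 near Igkv9-123, 16 before Igkv2-137 and 15 near Igkv1-132 and Igkv1-135, all more than 5 kb from the segment. The motif strands were split along the locus. In the part farther from Igkc than the midpoint, 10 motifs were on the plus strand, which is that of Igkc, and 3 on the minus strand. In the nearer part all 6 motifs were on the minus strand and 1 peak had none. The V segments are themselves in both orientations, with 25 on the plus and 18 on the minus strand in the farther part and 13 and 43 in the nearer part. The motif had the strand of the nearest segment in 14 of 19 peaks, against 29 of 30 in the heavy and 20 of 24 in the alpha/delta locus.

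In the gap between the V and J segments of the kappa locus, where Cer and Sis lie, 1 peak was deposited. It stood 5.33 kb past Igkv3-1 with a height of 11 and 21 CTCF tags against 1 IgG tag, and its motif was on the minus strand. Past Igkc, the kappa constant gene, 3 flanking peaks at 42.3, 71.2 and 79.3 kb had heights of 8 to 10 and motifs on the minus strand too. Igkc itself held 17 CTCF and 24 IgG tags and no peak, and the 5 Igkj regions had a median of 18 and 27 tags. The 4 kappa segments that passed the exact binomial test with higher CTCF were Igkv8-28 (65 against 19 tags), Igkv17-121 (42 against 17), Igkv4-74 (24 against 9) and Igkv8-19 (20 against 4), and Igkv8-28 was the one among them with a peak.

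In the beta locus peaks were most frequent at V segments, at 12 of 23 V regions, a share of 52.2% (33.0 to 70.8%), and absent from the 14 Trbj, 2 Trbd and 2 C regions. The highest CTCF tag counts were at Trbv12-1 with 126 against 45 IgG tags (ratio 2.67, 1.88 to 3.84, adjusted p = 2.15e-08, exact binomial test), Trbv13-1 with 112 against 45, Trbv4 with 103 against 33, Trbv3 with 79 against 38 and Trbv2 with 78 against 36. The regions of Trbv12-1 and Trbv13-1 share peaks and tags, and so do those of Trbv3 and Trbv2. The tallest summit, with a height of 17 and 39 CTCF tags against no IgG tag, stood 5.82 kb past Trbv20. Of the 11 peaks of the locus 5 had no motif, and the 5 motifs among the V segments upstream of the D segments read towards the D, J and C segments. Trbv31, the V segment that lies beyond the C genes in the reverse orientation, had a summit 1.03 kb past its 3′ end, between it and Trbc2, with a height of 14, 25 against 6 tags and a motif on the minus strand, which is that of the segment. The 3 flanking peaks 46.0, 64.5 and 72.5 kb beyond Trbv31 had plus-strand motifs and heights of 9, 15 and 10. The regions of Trbj1-1 to Trbj1-4, which overlap each other, had more CTCF than IgG tags without a deposited peak, at 48 to 53 against 25 to 27. The C genes Trbc1 and Trbc2 held 43 against 40 and 37 against 56 tags, and neither passed the test.

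The gamma and lambda loci had no peak within 5 kb of a segment. Between the gamma segments 1 peak of height 8 stood 6.29 kb before Trgv3. Outside the gamma locus, past Tcrg-C, the flanks held peaks of height 22 and 23 at 12.3 and 13.4 kb and of height 27 at 86.1 kb, which were taller than any summit within the locus. The gamma C genes held 76 against 84 tags (Tcrg-C), 42 against 40 (Trgc2) and 23 against 44 (Trgc1), the last with higher IgG (adjusted p = 0.0190, exact binomial test). In the lambda locus the 3 V segments, Iglv1, Iglv2 and Iglv3, held 44 to 54 CTCF and 33 to 42 IgG tags. A peak of height 14 with 50 against 5 tags lay 61.0 kb before Iglv1, and another of height 18 with 43 against 2 tags lay 82.2 kb past it. Their motifs shared all 19 bases, both on the plus strand, while the V segments are on the minus strand. Of the 4 segments outside the loci, the V segment AC158671.1 on chromosome 6 had a peak, with 70 against 38 tags, and Ptcra held 61 against 41 and did not pass.

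The genes that cut, join and accompany the receptors were read in the same way. Of 23 listed genes 12 had a peak in the gene or within 5 kb of it, where the background over all genes was 42.3%. Xrcc4, Prkdc, Cd247, Xrcc5 and Nhej1 are much longer than the median gene region of 15.9 kb, and all had a peak. The part of gene length in the 12 was not tested. The exact binomial test called 7 with higher CTCF and 3 with higher IgG, against backgrounds of 33.1% and 8.47%. The highest summits were at Vpreb3, with a height of 51, and at Xrcc5 and Nhej1, which act in end joining, with 30 and 26. Next were Cd3g, a signalling chain of the T cell receptor, with 22, and Xrcc4, also of end joining, with 20. Of these, Vpreb3, Nhej1 and Cd3g were called with higher CTCF. Xrcc5, with 470 CTCF against 409 IgG tags, was not called, and Xrcc4, with 987 against 1165, was called with higher IgG. Rag1, a subunit of the recombinase, had a peak of height 12 with 114 against 79 tags in its region, and Rag2, its partner, had none, with 61 against 69. Neither passed the test.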

How the data were processed

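CTCF and IgG ChIP-seq libraries of R1/E ESCs (1 each) were read. The authors deposited aligned tags (counts, 1 row per tag), the peaks of MACS 1.4 called against IgG with their score (−10 log10 of p), and the summits with their pileup height (signal, in tags), all on mm9. The aligner is not given in the sources used here, and the score minimum was 50. The labels' average fragment of 500 bp is wider than the 185 bp estimated from the tags, which were therefore moved by 92 bp. No 2 tags of a library shared position and strand, so depth at a site is capped.

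Segments came from GENCODE M1 and symbols from RefSeq (GRCm38, names only; 469 of 481 matched through symbols or synonyms). GENCODE M1 gives T cell receptor segments immunoglobulin types, so loci were assigned by position. Shares carry Wilson intervals, densities exact Poisson intervals and tag ratios exact conditional binomial intervals, all at 95% and for counting error only. The binomial test was called at 0.05 after Benjamini-Hochberg adjustment over all genes. The motif matrix was built from 192 CTCF sequences that the study listed for RAD21 sites in ESCs. It used a pseudocount of 1, base frequencies of 0.29 and 0.21, and exact p. Unique 35-base words were counted over both strands of the assembly. Named segments were all C genes and the D and J groups, those nearest the 3 highest summits of each locus, the 10 V segments with a summit closest to their 3′ end, up to 5 called segments per locus with most CTCF tags, the peaks within 100 kb of a locus or in its gaps, and up to 5 of 23 receptor and recombination genes. The windows past V ends and before V starts, Rag1, Rag2, and the other segments named with a motif or shared peak were chosen after values were seen. The members and lists were chosen with earlier results of these data known. Alternatives changed the flank, peak threshold, scaling, tag position and motif window. The calculations were tested on simulated data. Python 3.11.15, numpy 2.4.6, scipy 1.17.1 and pandas 2.3.3 were used.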

Additional observations from a re-analysis of the deposited data

How the results depend on the processing

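No paired analysis was possible because each antibody has 1 library, and leaving out a replicate was not possible for the same reason. The alternative that leaves out pseudogene types was not run because no member carries such a type. With flanks of 1 kb the share of segment regions with a peak was 6.86%, with flanks of 10 kb 23.5% and with peak scores of at least 100 it was 7.07%. In the same order it was 11.3%, 25.4% and 7.04% in the heavy locus, 0%, 11.4% and 0.952% in the kappa locus, 6.98%, 25.0% and 9.88% in the alpha/delta locus, and 12.2%, 43.9% and 14.6% in the beta locus. The share over all genes or windows was not computed at these settings, so how these values stand to a background is not shown. The distinct peaks numbered 33 with flanks of 1 kb and 26 with scores of at least 100. The CTCF to IgG ratio was 1.4 with flanks of 1 kb, 1.09 with 10 kb and 1.30 when scaled by tags outside peaks. It was 1.03 (interval 1.00 to 1.06) when tags inside peaks were left out of the regions but kept in the totals used for scaling. The 2 changes were not combined, so the 1.03 does not show whether the regions lack an excess outside peaks. The binomial test called 47 segments with flanks of 1 kb, where it called 23.8% of all genes. Summits with a motif were 88.9% at p of at most 1e-04 (all summits 84.1%) and 36.5% within 50 bp (all summits 31.8%). V segments with a summit near the 3′ end numbered 63 within 5 kb, 28 with scores of at least 100 and 25 within 1 kb. The remaining alternatives, 29 of 53, stayed inside the interval of the main value or less than 1.5 times from the main count, among them segments with at least 10 IgG tags, an alternative chosen after seeing the data, at 17.8%. The alpha/delta regions had the lowest share of unique words and the fewest IgG tags per kb, and there a segment without a deposited peak is not shown to be unbound.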
